A study of Arabidopsis thaliana with 6 samples.

Results

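The genes carried by the plastid genome of Arabidopsis thaliana were followed in anthers of Col-0, the wild type, and of ice1-2, a homozygous Col-0 line whose ICE1 gene is broken by T-DNA within an exon. ICE1 encodes a bHLH transcription factor known for cold responses and stomatal development. Members were all rows whose identifier begins with ATCG, the prefix of plastid loci, and they numbered 133 of the 32833 rows in each table. RNA from anthers of stages 9 to 13 was sequenced in 3 libraries per genotype, labelled A, B and C, and both genotypes were grown under the same long days. The sources do not say whether the 3 libraries came from separate plants, so the p-values below measure only the spread between these libraries. The mutant is a single insertion line, and its complemented line was not sequenced here.

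The plastid is the organelle of photosynthesis in green tissue, and in anthers it is also known as a site of starch and lipid synthesis in the developing pollen and the tapetum. Its genome encodes part of each photosynthetic complex, part of its own ribosome, ribosomal and transfer RNAs, and the core of a bacterial-type RNA polymerase called PEP. Nuclear genes supply the other subunits, the sigma factors that direct PEP to promoters, and the phage-type polymerases that transcribe plastid genes alongside it. Plastid transcripts are cut from long precursors and, unlike nuclear mRNAs, carry poly(A) tails mainly as a signal for decay, so the share of plastid reads in a library also moves with how RNA was selected for sequencing. Which selection was used here is not stated in the paper or the labels.

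Neither the tables, the paper nor the reference annotation TAIR10.1 pairs ATCG identifiers with gene symbols, so 127 of the 133 rows are given by identifier alone and no row was assigned to a complex. For the other 6, the reference names the plastid product in its notes on similar nuclear genes. Among these are ATCG00430, noted as photosystem II reaction center protein G, and ATCG00530, noted as a CemA-like proton extrusion protein. ATCG00660 is noted as ribosomal protein L20, ATCG00750 as ribosomal protein S11 and ATCG01310 as ribosomal protein L2. ATCG00670 is noted as the plastid-encoded CLP P, the proteolytic subunit of the Clp protease. The name noted for ATCG00430 may be an old one, so that row is not taken here as a photosystem II gene.

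Values were deposited as FPKM, a fragment number scaled to transcript length and to mapped reads, so levels can be set side by side between rows. Each library summed to between 613304 and 664968 FPKM. Total counts were not used here. Steps between low values gave rough depths, in units of 1e+06 fragments, of 22.5 to 27.4 in Col-0, but 5.94 in ice1-2 A against 19.8 in ice1-2 B and 14.5 in ice1-2 C. The 4 nuclear rows annotated as ribosomal RNA held 0.461%, 2.22% and 0.912% of the FPKM sum in Col-0, and 7.10%, 1.07% and 2.08% in ice1-2. Values are given in the order of libraries A, B and C throughout. The library labelled ice1-2 A was thus the shallowest and the richest in nuclear ribosomal RNA. ICE1 itself read 12.7, 9.25 and 14.0 FPKM in Col-0 and 12.9, 15.4 and 21.5 FPKM in the libraries labelled ice1-2, with a log2 fold change of 0.44 (SE 0.24, limma BH-adjusted p = 0.323). ICE1 was thus not lower in the libraries labelled ice1-2. By qRT-PCR, the paper found this gene expressed at a very low level in inflorescences of the mutant. The FPKM values cover the whole gene and do not show on which side of the insertion the reads lie. They therefore cannot check the label. In what follows, ice1-2 stands for the libraries so labelled, and every direction rests on those labels.

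Plastid rows held a small and uneven share of the FPKM sum. The share was 0.0517% in Col-0 A, 0.384% in Col-0 B and 0.148% in Col-0 C, a mean of 0.195% ± 0.171 (SD, n = 3). It was 2.01% in ice1-2 A, 0.351% in ice1-2 B and 0.351% in ice1-2 C, a mean of 0.903% ± 0.957 (SD, n = 3). The genotypes overlapped, because Col-0 B lay above ice1-2 B and C, and ice1-2 A stood far above the other 5 libraries. Without ice1-2 A the ice1-2 mean was 0.351%, and without Col-0 B the other Col-0 libraries lay at 0.0517% and 0.148%. No test was run on this share.

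The nuclear ribosomal RNA and mitochondrial shares moved with it. Mitochondrial rows held 0.0967%, 0.387% and 0.139% in Col-0 and 0.819%, 0.189% and 0.264% in ice1-2. In all 3 classes ice1-2 A was the highest library and Col-0 B the highest of Col-0, and Col-0 A was the lowest library. The part of the nuclear ribosomal RNA share and of depth in the plastid values was not tested.

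**Figure D1:**
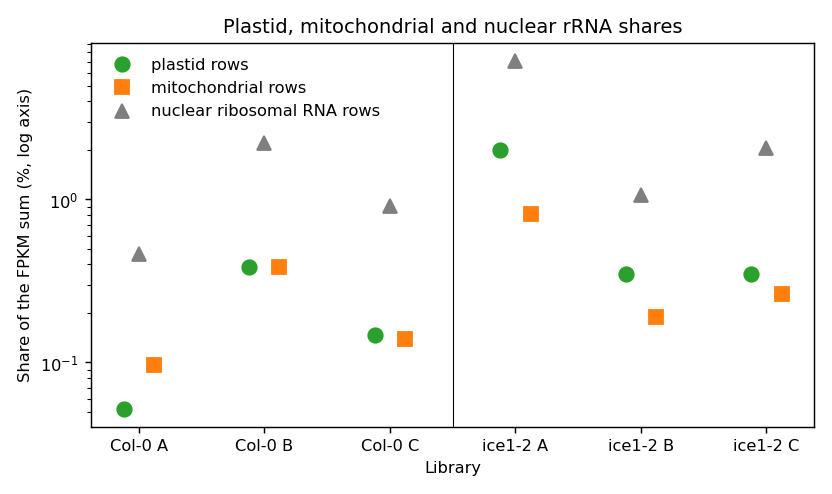
Share of the FPKM sum (%, log axis) held by the plastid rows, the mitochondrial rows and the 4 nuclear ribosomal RNA rows, 1 point per class in each of the 6 libraries. All 3 classes are highest in ice1-2 A, where the plastid rows reach 2.01%, and lowest in Col-0 A.

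Within the plastid set, 4 rows held most of the signal. ATCG00950 read 48.9, 637 and 222 FPKM in Col-0 and 3041, 572 and 551 FPKM in ice1-2. ATCG00920 read 50.5, 359 and 131 FPKM in Col-0 and 3236, 407 and 329 FPKM in ice1-2. Both were highest in ice1-2 A and lowest in Col-0 A, with the other 4 libraries in between and mixed by genotype. ATCG01180, with a mean of 893 FPKM, and ATCG01210, with a mean of 774 FPKM, followed the levels of ATCG00950 and ATCG00920. The 4 rows together made up 65.6%, 86.3% and 82.9% of all plastid FPKM in Col-0 and 94.0%, 90.7% and 85.6% in ice1-2.

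The 4 rows did not keep a fixed proportion. The ratio of ATCG00920 to ATCG00950 was 1.03, 0.564 and 0.589 in Col-0 and 1.06, 0.711 and 0.597 in ice1-2. It was near equality in the 2 libraries with the lowest and the highest plastid share, Col-0 A and ice1-2 A, and lower in the other 4. The ratio of ATCG01210 to ATCG01180 followed the same course, from 0.546 in Col-0 B to 1.06 in ice1-2 A.

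Below them, 4 rows had a mean over 6 libraries between 10 and 100 FPKM. ATCG00960 read 8.01, 50.5 and 22.1 FPKM in Col-0 and 63.8, 18.5 and 37.1 FPKM in ice1-2, and ATCG01170 stayed close to it with a mean of 34.8 FPKM. ATCG00020 read 9.08, 24.3 and 13.9 FPKM in Col-0 and 61.3, 16.0 and 25.9 FPKM in ice1-2. In each of the 3 rows Col-0 B exceeded ice1-2 B. ATCG00960 amounted to 16.4% of ATCG00950 in Col-0 A but to 2.098% in ice1-2 A, so the rise of the highest rows in ice1-2 A was not shared in size by all abundant rows.

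ATCG00490 had another course. It read 1.60, 14.8 and 2.39 FPKM in Col-0 and 46.9, 16.5 and 14.3 FPKM in ice1-2. All 3 ice1-2 libraries lay well above Col-0 A and C, but Col-0 B exceeded ice1-2 C, so the groups overlapped. Relative to ATCG00020 it stood at 0.177, 0.609 and 0.172 in Col-0 and at 0.765, 1.03 and 0.553 in ice1-2. Its log2 fold change of 2.33 (SE 0.73) did not pass (limma BH-adjusted p = 0.120). The 10 highest rows were completed by ATCG00280, from 0.802 FPKM in Col-0 A to 34.4 FPKM in ice1-2 A, and ATCG00350, from 1.52 FPKM in Col-0 A to 32.6 FPKM in ice1-2 A.

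Most of the plastid genome was read at low levels. By mean FPKM, 60 rows lay between 1 and 10, 51 between 0.1 and 1, and 9 below 0.1 but above 0. Another 5 rows, ATCG00050, ATCG00260, ATCG00310, ATCG00320 and ATCG01030, were listed at 0 in all 6 libraries. In all, 80 rows were above 0 in every library and 48 were listed at 0 in 1 to 5 of them. Only 55 rows reached the minimum for the test, a level of 1 FPKM or more in 3 libraries or more, and 73 rows above 0 did not. Of the 47 rows that reached 1 FPKM in only 1 or 2 libraries, 42 did so in ice1-2 A, the shallowest library. The matching share over all genes was not computed, so this count is not known to be particular to plastid rows.

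The 6 rows named in the reference all belonged to the low range. ATCG00670, CLP P, read 1.86, 2.94 and 1.93 FPKM in Col-0 and 5.76, 2.73 and 4.87 FPKM in ice1-2, with only Col-0 B and ice1-2 B out of order, and a log2 fold change of 0.82 (SE 0.29, limma BH-adjusted p = 0.159). ATCG01310, ribosomal protein L2, read 1.54, 2.01 and 1.14 FPKM in Col-0 and 5.89, 2.63 and 3.04 FPKM in ice1-2. Its groups did not overlap, and its log2 fold change was 1.03 (SE 0.31, limma BH-adjusted p = 0.115).

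The other 4 named rows did not reach the minimum. ATCG00660, ribosomal protein L20, read 0.0975, 0.706 and 0 FPKM in Col-0 and 4.01, 0.806 and 0.657 FPKM in ice1-2. ATCG00750, ribosomal protein S11, read 0.360, 0.619 and 0.645 FPKM in Col-0 and 4.84, 0.505 and 0.802 FPKM in ice1-2. Both stood out in ice1-2 A alone. ATCG00530, the CemA-like protein, was likewise at 3.43 FPKM in ice1-2 A and at most 0.876 FPKM elsewhere, whereas ATCG00430 stayed between 0.123 and 0.965 FPKM.

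Part of the rows were read as pairs. The plastid genome carries a large inverted repeat, in which each gene is present as a pair of identical copies, and TAIR10.1 lists 7 protein symbols in a pair of places on it. In the tables, 15 pairs of plastid rows shared an identical value above 0 in at least 1 library, to every deposited digit. In 12 of these pairs the identifiers mirrored each other, from ATCG00840 with ATCG01300 to ATCG00990 with ATCG01140, with the order of the partners strictly reversed. ATCG00980 and ATCG01150 shared a value above 0 in 4 libraries, the most of any pair. ATCG00920 with ATCG01210, ATCG00950 with ATCG01180 and ATCG00960 with ATCG01170 were each other's closest profiles as well, with largest differences of 0.16, 0.21 and 0.15 on the log2(FPKM + 0.5) scale. Reads of identical copies cannot be placed on one of them, so the levels of these rows are uncertain and paired rows are not independent counts of a result.

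Across the 55 tested rows, levels were mostly higher in the libraries labelled ice1-2, but only 1 row passed the test. The median log2 fold change of ice1-2 against Col-0 was 1.03, beside 0.15 over all 18858 tested genes. It lay above 0 in 52 of the 55 rows, beside 65.2% of all tested genes. In these counts both rows of a pair were counted. One row (background 1.89% of tested genes, and 1.62% in the higher direction) passed at a BH-adjusted p under 0.05 in limma, and it also exceeded the log2 fold limit of 1 used in the study (background 1.78%). No row fell. At an unadjusted p under 0.05 there were 19 of the 55 rows, beside 21.4% of all tested genes.

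The spread between libraries was wide in these rows. Standard errors of the log2 fold change had a median of 0.58 over the plastid rows and of 0.23 over all tested genes. Groups did not overlap in 7 of the 55 rows, or 12.7%, all of them higher in ice1-2, where the background was 27.2% in either direction, 19.8% in the higher and 7.39% in the lower direction. ice1-2 A was the highest library in 49 of the 55 rows (background 6.93%), and Col-0 A the lowest in 33 (background 11.3%). ATCG00070, ATCG00210, ATCG00290, ATCG00690 and ATCG00840 reached the minimum only with ice1-2 A, where each was highest. The filter therefore favoured them in the count of 49 and among the rows above 0. Col-0 B exceeded both ice1-2 B and ice1-2 C in 23 rows, a count for which no share over all genes was computed.

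**Figure D2:**
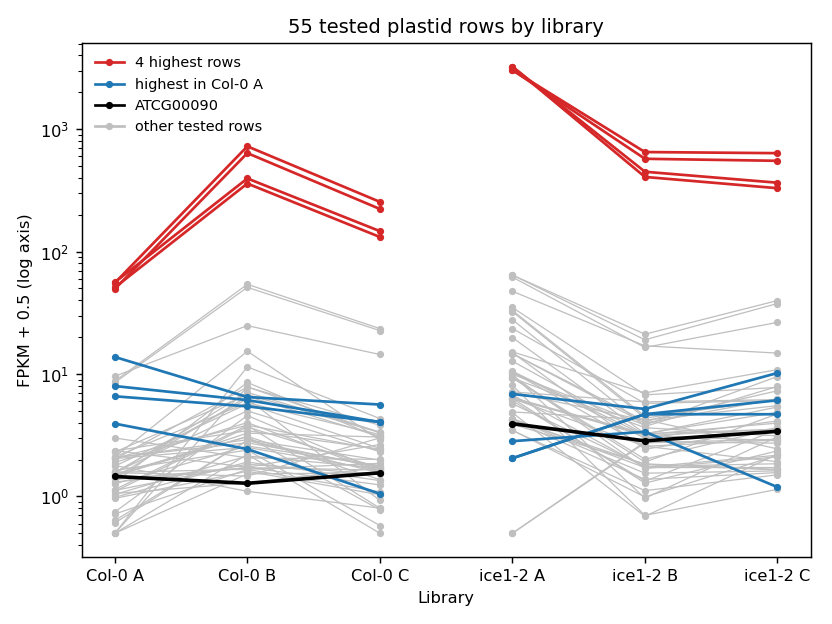
FPKM + 0.5 (log axis) of the 55 tested plastid rows in the 6 libraries, 1 line per row, broken between the genotypes. Red marks the 4 highest rows, blue 4 rows that are highest in Col-0 A, black ATCG00090 and grey the others. Most lines peak in ice1-2 A and are lowest in Col-0 A.

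A large part of the median rested on ice1-2 A. In the 50 rows that could be fitted with and without it, the median log2 fold change was 1.04 with all 6 libraries and 0.59 without ice1-2 A, beside 0.23 over all genes tested without it, and the value became smaller in 45 rows and larger in 5. No plastid row passed without that library. Median-ratio scaling, which moved the median of all genes to -0.017, left the plastid median at 0.90. With both changes the plastid median was 0.38, beside -0.016 over all genes.

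**Figure D3:**
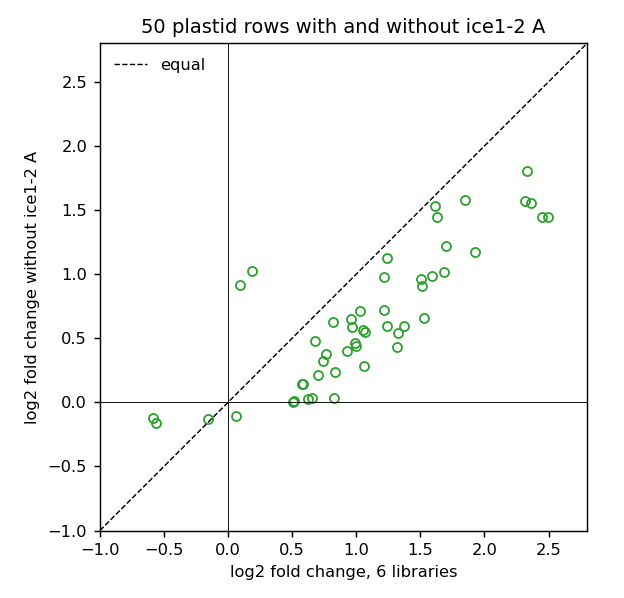
Log2 fold change of ice1-2 against Col-0 with all 6 libraries (horizontal axis) and without ice1-2 A (vertical axis) for 50 plastid rows, 1 point per row; the dashed line marks equal values. In 45 rows the point lies below the line, and the median moves from 1.04 to 0.59.

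ATCG00090 was the row that passed. It read 0.955, 0.780 and 1.06 FPKM in Col-0 and 3.43, 2.34 and 2.90 FPKM in ice1-2, with a log2 fold change of 1.24 (SE 0.23, limma BH-adjusted p = 0.0418). All 3 ice1-2 libraries lay above all 3 of Col-0, and each genotype varied little. The level is low and the call is not firm: leaving out Col-0 B, Col-0 C or any 1 of the ice1-2 libraries ended it, while its log2 fold change stayed between 1.12 and 1.36. Without Col-0 B, ATCG00580 passed in its place. ATCG00580 read 1.07, 5.78 and 0.427 FPKM in Col-0 and 6.65, 5.42 and 5.68 FPKM in ice1-2, so Col-0 B stood with the ice1-2 libraries.

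The other 6 tested rows without overlap were ATCG00150, ATCG00480, ATCG00680, ATCG00760, ATCG00830 and ATCG01310. ATCG00680 had the largest change of these, from 1.27, 5.21 and 1.96 FPKM in Col-0 to 23.0, 5.25 and 5.56 FPKM in ice1-2, with a log2 fold change of 1.68 (SE 0.60, limma BH-adjusted p = 0.157). The gap between Col-0 B and ice1-2 B was far smaller than the spread within either genotype. ATCG00830, whose profile is closest to that of ATCG01310, read 1.58, 2.24 and 1.26 FPKM in Col-0 and 5.90, 2.75 and 3.04 FPKM in ice1-2.

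The 4 most abundant rows had some of the largest changes and the widest errors. Their log2 fold changes were between 2.31 and 2.50, with standard errors between 0.91 and 0.94 and limma BH-adjusted p-values between 0.170 and 0.195. Without ice1-2 A they were between 1.45 and 1.57. Only 5 tested rows exceeded a log2 fold change of 2, these 4 and ATCG00490. The 4 rows form the close pairs named above, so they are not independent counts.

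A few rows, chosen after their values were seen, did not follow the common order of libraries. ATCG00630 read 13.3, 5.98 and 5.13 FPKM in Col-0 and 6.37, 4.68 and 9.69 FPKM in ice1-2. ATCG01160 read 7.47, 5.62 and 3.55 FPKM in Col-0 and 1.55, 4.19 and 5.60 FPKM in ice1-2, and ATCG00970, its mirrored partner, had the same value in 3 libraries. These rows were highest in Col-0 A, where most plastid rows were lowest, and ATCG00970 and ATCG01160 were lowest in ice1-2 A, where most were highest. Their log2 fold changes were -0.16 (SE 0.37) for ATCG00630, -0.58 (SE 0.42) for ATCG01160 and -0.56 (SE 0.35) for ATCG00970, the only 3 below 0, and none passed (limma BH-adjusted p = 0.836, 0.448 and 0.389). ATCG00630 turned to 0.24 without Col-0 A and to 0.073 without ice1-2 B.

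ATCG01020 was also highest in Col-0 A, at 3.43 FPKM, and its log2 fold change of 0.059 (SE 0.54) changed sign under median-ratio scaling and without some libraries. ATCG00930 and ATCG01200, another close pair, were listed at 0 in ice1-2 A only. ATCG00930 read 0.108, 2.37 and 1.06 FPKM in Col-0 and 2.24 and 2.43 FPKM in ice1-2 B and C. Another 4 tested rows were listed at 0 in at least 1 library, namely ATCG00210 in Col-0 A and C and ATCG00290, ATCG00940 and ATCG01190 in Col-0 A.

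Among the 73 rows below the minimum, 66 had a log2 fold change above 0 and 7 below 0 in a fit without the filter, and none passed (smallest limma BH-adjusted p = 0.106). The groups did not overlap in 6 of them, or 8.22%, beside 13.2% of all rows above 0 that were below the minimum. Of these 6, ATCG00190, ATCG00420, ATCG00590 and ATCG01090 were higher and ATCG00220 and ATCG00510 lower in ice1-2. ATCG00220 read 1.47, 0.463 and 0.669 FPKM in Col-0 and 0.105, 0.101 and 0 FPKM in ice1-2. All ice1-2 libraries were below all Col-0 libraries, ice1-2 A included, in contrast to most of the set. ATCG00510 read 0.884, 1.31 and 0.416 FPKM in Col-0 and 0.334, 0 and 0.374 FPKM in ice1-2. Their log2 fold changes in that fit were -1.20 (SE 0.27, limma BH-adjusted p = 0.106) and -0.88 (SE 0.32, limma BH-adjusted p = 0.226).

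Nuclear genes for subunits of the plastid complexes were taken in 7 lists. Of their 77 tested genes 22 rose, where 1.62% of all tested genes did, and none fell. The others did not pass, and 1 of them, AT2G26500, had a log2 fold change of -0.33 (SE 0.63). Of 12 nuclear photosystem I genes tested, 8 rose, with a median log2 fold change of 1.18, and the groups were apart in all 12 (background 27.2%). PSAO rose from 90.2, 85.8 and 82.3 FPKM in Col-0 to 188, 212 and 287 FPKM in ice1-2, a log2 fold change of 1.38 (SE 0.21, limma BH-adjusted p = 0.0311). PSAK rose by a log2 fold change of 1.31 (SE 0.23). In both genes ice1-2 A was the lowest of the ice1-2 libraries and ice1-2 C the highest, the reverse of ice1-2 A's place in the plastid rows.

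Photosystem II genes in the nucleus had a median of 1.19, with 3 of 11 that rose, among them NPQ4, whose product PsbS acts in the thermal dissipation of excess light (log2 fold change 1.80, SE 0.25), and PSBQA of the oxygen-evolving complex (1.28, SE 0.20). Of the 5 cytochrome b6f and ATP synthase genes 3 rose, with PETC, the Rieske protein, at 1.401 and PDE334, an ATP synthase subunit, at 1.22. Of the 4 Rubisco small subunit genes 2 rose, RBCS2B at 2.50 and RBCS3B at 1.61. These small subunit genes are near-identical copies and may share reads.

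Of 6 nuclear NDH genes, for the plastid NADH dehydrogenase-like complex of cyclic electron flow, 3 rose. NdhM went from 1.396, 0.838 and 1.08 FPKM in Col-0 to 6.04, 6.76 and 7.15 FPKM in ice1-2, a log2 fold change of 2.17 (SE 0.21, limma BH-adjusted p = 0.00861), and it kept its call without any 1 library. NdhU followed at 1.91. Of 28 nuclear genes for plastid ribosomal proteins, 3 rose, PRPL35 at 1.02, EMB3136 at 1.00 and emb2394 at 0.93, and the median was 0.74. None of the 11 genes for acetyl-CoA carboxylase and Clp protease subunits passed, with a median of 0.56.

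The counts of these lists depended on the libraries and the settings. Of the 25 genes that passed in all lists named here, only NdhM and CRB, an RNA-binding protein gene described below, kept their calls without any 1 library. No nuclear photosystem I gene passed once libraries B or C of either genotype were left out singly, and without ice1-2 A 5 of the 12 did. That list had 0 genes passing without the filter, 3 under median-ratio scaling, 1 with organelle rows left out of the sum and 12 with quality weights. The plastid ribosome list had 21 with quality weights, and the Rubisco list 0 under median-ratio scaling. The difference in log2 fold change between the nuclear lists and the plastid rows was not tested.

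**Figure D4:**
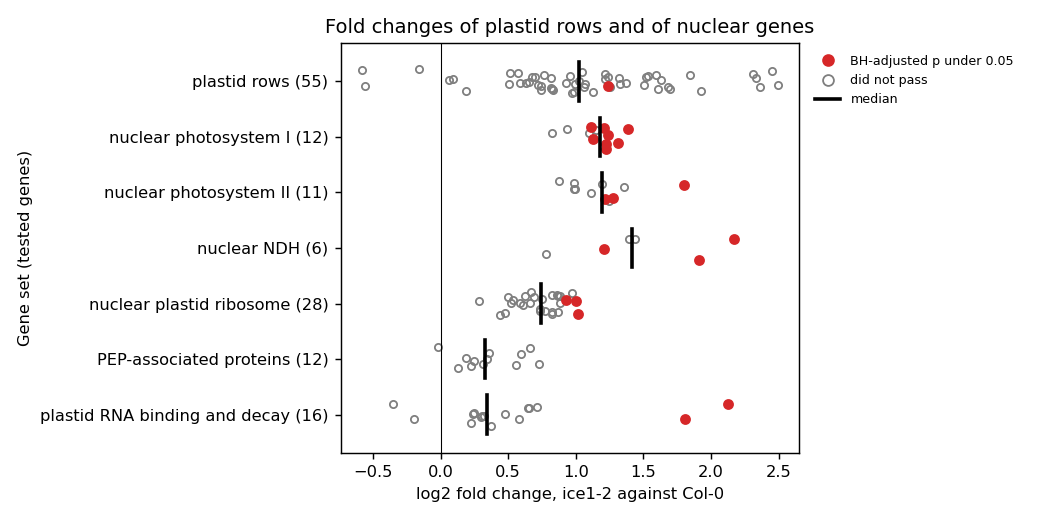
Log2 fold change of ice1-2 against Col-0 for the 55 tested plastid rows and for tested members of 6 nuclear lists, 1 point per gene. Filled red points passed at a BH-adjusted p under 0.05 and black bars are medians. The plastid rows spread from -0.58 to 2.50 around 1.03 with 1 gene passing, while 8 of 12 nuclear photosystem I genes passed around a median of 1.18.

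The order of the libraries differed between the organelle rows and most nuclear lists. After each gene's mean over 6 libraries was subtracted on the log2(FPKM + 0.5) scale, the median over the 55 plastid rows was -1.13, 0.20 and -0.63 in Col-0 and 1.51, -0.11 and 0.24 in ice1-2. The 38 tested mitochondrial rows ran through -1.03, 0.41 and -0.57 in Col-0 and 1.26, -0.16 and 0.33 in ice1-2, nearly the plastid course. The 12 nuclear photosystem I genes ran through -0.58, -0.65 and -0.47 in Col-0 and 0.25, 0.50 and 0.94 in ice1-2. Both organelles placed Col-0 B above ice1-2 B, whereas the photosystem I genes kept the genotypes apart. The 15 nuclear light-harvesting genes shared part of the organelle order, at -0.64, -0.44 and -0.59 in Col-0 and 0.51, -0.14 and 1.21 in ice1-2, with Col-0 A lowest and ice1-2 B the lowest of ice1-2. The difference in order between sets was not tested. Mitochondrial rows had a median log2 fold change of 0.81, and none of the 38 passed. At an unadjusted p under 0.05 there were 8 of the 38, or 21.1%, near the 21.4% of all tested genes.

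**Figure D5:**
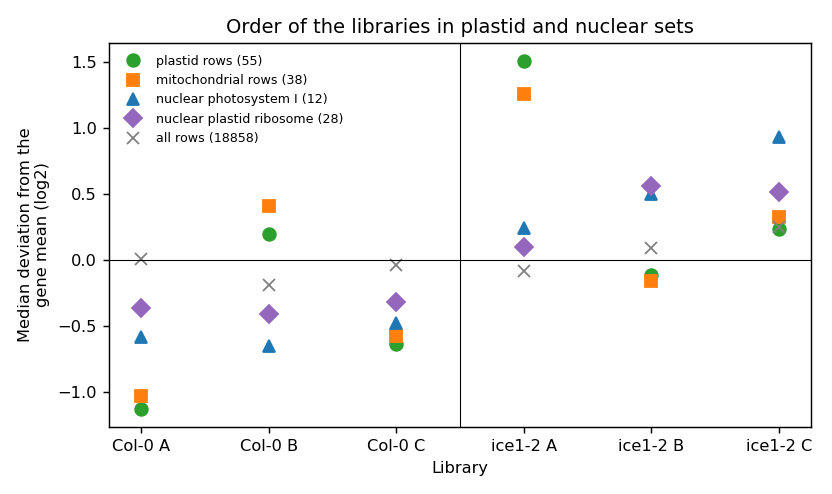
Median deviation from each gene's mean over 6 libraries (log2) for the plastid rows, the mitochondrial rows, 2 nuclear lists and all tested rows, 1 point per set and library. Plastid and mitochondrial rows share an order with ice1-2 A highest, at 1.51 and 1.26, while the nuclear photosystem I genes peak in ice1-2 C at 0.94.

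The genes that transcribe the plastid genome did not pass the test. The 6 sigma factor genes were all above 0, with a median log2 fold change of 0.51, the groups apart in 3 of them (background 27.2%) and SIGA the largest at 0.76 (SE 0.22, limma BH-adjusted p = 0.0991). The 12 genes for PEP-associated proteins had a median of 0.33 with the groups apart in 5. Of the phage-type polymerase genes, RPOTP lay at -0.034 and RPOTMP at -0.085. RPOTM, listed with them but encoding the mitochondrial enzyme, lay at -0.0062. Of 16 tested genes for plastid RNA binding and decay 2 rose (background 1.62%). They were CSP41A at 2.12 (SE 0.37, limma BH-adjusted p = 0.0377) and CRB at 1.81 (SE 0.18, limma BH-adjusted p = 0.00917). Both encode partner proteins that bind plastid RNA. CSP41A lost its call when library B or C of either genotype was left out, with limma BH-adjusted p-values between 0.0865 and 0.125. CRB read 7.52, 5.49 and 6.39 FPKM in Col-0 and 21.6, 24.8 and 25.01 FPKM in ice1-2, with a wide gap between the genotypes.

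Markers of the tissues that an anther sample can hold were summed in each library. The 16 light-harvesting genes, which mark green tissue, summed to 1321, 1487 and 1491 FPKM in Col-0 and to 2700, 2248 and 4605 FPKM in ice1-2. All 15 tested had a log2 fold change above 0 (background 65.2%), and LHCB6 alone passed, at 1.45 (SE 0.24). The groups were apart in 7 of the 15, or 46.7%, all of them higher in ice1-2. The background was 27.2% in either direction and 19.8% in the higher direction. The most abundant member, CAB1, was at 468 to 544 FPKM in Col-0 and 756 to 1181 FPKM in ice1-2. In LHCA1 ice1-2 B, at 67.4 FPKM, lay below Col-0 B at 84.2 FPKM.

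The 12 tapetum markers summed to 684, 52.3 and 63.6 FPKM in Col-0 and to 179, 352 and 305 FPKM in ice1-2, with 1 listed at 0 in every library, and none of the 7 tested passed. Col-0 A had the highest sum, with ATA7 alone at 511 FPKM. Medians of the deviation from each gene's mean (log2) over the 7 tested markers were 2.14 in Col-0 A and 1.39 in ice1-2 B. They were below 0 in the other libraries. Col-0 A is also the library in which 33 of the 55 plastid rows were lowest. The 10 pollen markers summed to between 11756 and 14600 FPKM in Col-0 and between 7090 and 11690 FPKM in ice1-2, and none passed. Their median log2 fold change was -0.34, with 2 of the 10 above 0. The groups were apart in 4 of the 10, or 40%, all lower in ice1-2 (background 7.39% in the lower direction). In bulk anthers, more green cells and more RNA per cell cannot be told apart, and the part of these markers in the plastid values was not tested.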

How the data were processed

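Anther RNA of 3 Col-0 and 3 ice1-2 libraries was measured by paired-end sequencing. The authors trimmed reads with Trim Galore, mapped them to TAIR10 with TopHat2, assembled transcripts with StringTie and Cufflinks-CuffMerge, counted reads per gene with HTSEQ and deposited FPKM values. Whether strand was used in counting, and how reads with several matches were treated, is not stated in the paper or the labels. The groups were taken from the sample titles and genotype labels.

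Of the 32833 rows, the 18858 that reached 1 FPKM in 3 libraries or more were transformed to log2(FPKM + 0.5). limma 3.58.1 (R 4.3.3) fitted genotype without other terms, and its variance prior followed mean expression. Fold changes are on that scale, which understates changes of low rows. P values were adjusted over all tested rows by the Benjamini-Hochberg method (BH), and passed at 0.05. Data were simulated for Col-0 against ice1-2 on these 18858 genes. The fit called 48 of 67 genes changed by a log2 of 1.5, 55 of 67 changed by 2 and 63 of 66 changed by 3. The changed genes were drawn from all tested genes, with noise independent between genes. Plastid rows had wider errors, with a median SE of 0.58 against 0.23 over all tested genes, and shared an order of libraries. These rates therefore do not apply to the plastid rows. Tables used Python 3.11.15, numpy 2.4.6 and pandas 2.3.3, and figures matplotlib 3.10.9.

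Depth was estimated from the steps of low FPKM values times transcript length in genes with 1 transcript. In the best solution, 32.4% to 54.0% of values fell on whole steps to a tolerance of 0.05, beside 10.7% for an even spread, so the depths are rough and no reads were recovered. The precision of low rows is therefore unknown beyond the spread of libraries.

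Names came from TAIR10.1, whose coordinates were not used because the authors' build is TAIR10. The members and all 14 gene lists were chosen with earlier results of these data known. Rows named are the 10 highest, those that passed, tested rows listed at 0, and up to 2 per direction among the members of each list that passed; the parts of that rule on psbA, rbcL and each complex could not be applied without symbols. For the same reason, the median fold change planned for protein-coding genes and for each complex was taken over all tested plastid rows. The 6 rows named by the reference were added, and so, after their values were seen, were rows without overlap, rows against the common order and ATCG00580. Alternatives were pseudocounts of 0.1 and 1, no filter, a replicate block, other scalings, quality weights and leaving out each library.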

Additional observations from a re-analysis of the deposited data

How the results depend on the processing

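The count of plastid rows that passed, 1 with or without the fold limit, was 0 without the filter, with a replicate block, under median-ratio scaling and with plastid and mitochondrial rows left out of the sum, and 0 under median-ratio scaling without ice1-2 A, which was added after seeing the data. Leaving out 1 library at a time gave 0 to 1. The count stayed at 1 with pseudocounts of 0.1 and 1, quality weights and nuclear ribosomal RNA left out. The cause was not tested. The median log2 fold change of plastid rows stayed above 0 throughout, between 0.38 and 1.42. Whether replicate letters pair the libraries is not stated in the paper or the labels. Deviations of the same letter correlated at -0.21, 0.050 and 0.12, and not every library correlated best with its own letter. With so few libraries these correlations cannot settle a pairing. The block took the count over all genes from 357 to 35. Over all genes 28 passed without the filter, 198 under median-ratio scaling, 1536 with quality weights, 203 with organelle rows left out, and 15 to 633 with 1 library left out. Of 22 plastid rows followed, 20 kept 1 sign in every setting whose fit held them. ATCG00430, ATCG00530, ATCG00660 and ATCG00750 were below the minimum and had a value only from the fit without the filter. Their sign therefore could not change, and they say nothing about stability. The planned removal of ribosomal and transfer RNA rows was not run, because the identifiers are not annotated; removing the 4 highest rows, added after seeing the data, took the shares to 0.0319% in Col-0 and 0.0676% in ice1-2. For the same reason only nuclear ribosomal RNA was left out of the sum.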
